A study of Mus musculus with 16 samples.

Results

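The genes for the proteins of the cytoplasmic ribosome were taken from the count table by symbol. A gene was a member where its symbol had Rpl or Rps followed by a digit, and 5 rows named as pseudogenes and 9 rows of Rps6k kinases were left out. This gave 81 of the 15871 entries of the table. The filter on low counts passed 79 of them, among 13527 entries tested. By symbol, 46 were counted to the large subunit (Rpl) and 33 to the small subunit (Rps). Rpl39l and Rpl3l did not pass, with at most 0.608 and 0.122 CPM (counts scaled by library size) in any library. Of the members, Rps19bp1 carries the name only, since it encodes a protein that binds Rps19, and Rpl7l1 encodes a relative of Rpl7. Both are counted by symbol in the subunit counts here and below.

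RNA was sequenced from macrophages of the peritoneum of wild-type C57BL/6 mice aged 8 weeks, drawn out with 6% soluble starch and cultured in DMEM with serum. The 16 libraries formed 4 groups of 4, each treated for 48 h. The L_C cells had low glucose with 27.5 mM mannitol as the osmotic control, and the L_O cells had low glucose and ox-LDL, the oxidised lipoprotein that macrophages take up to become foam cells. The H_C cells had 33 mmol/L glucose, and the H_O cells had 33 mmol/L glucose with ox-LDL. Mannitol is not named for L_O, so in low glucose the presence of ox-LDL and the absence of mannitol cannot be told apart. For the same reason, high glucose and a higher osmotic load cannot be told apart between H_O and L_O. The labels give ox-LDL as 50 mg/ml, a unit that could not be checked here. They do not say whether replicates were separate mice or separate cultures, so p-values measure the spread between these libraries. All 7 macrophage markers looked for were in the table, and their summed level lay between 17100 and 20600 CPM in the 16 libraries. The summed levels of B cell and neutrophil markers stayed at or below 5.23 CPM. Those of 6 T and NK cell markers in the table, of 8 listed, were 5.57 to 9.68 CPM in L_C and 2.78 to 4.99 in L_O, and 5.03 to 7.04 in H_C and 3.57 to 4.74 in H_O, so they were lower with ox-LDL with no overlap at either glucose level. The 6 mesothelial and fibroblast markers summed to 45.9 to 61.9 CPM in L_C, 17.4 to 30.2 in L_O, 30.3 to 175 in H_C and 27.5 to 91.5 in H_O. The part of these cells in the ribosomal protein levels was not tested.

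A ribosome has a small subunit, which reads the mRNA, and a large subunit, which joins the amino acids. Their proteins are made in near equal amounts, and a protein in excess is degraded. In mammals the mRNAs of these proteins begin with a C followed by a run of pyrimidines, the 5′ terminal oligopyrimidine (TOP) tract, through which mTOR signalling and the LARP1 protein set their translation and stability. The same tract marks the mRNAs of several translation factors, among them Eef1a1, Eef2 and Pabpc1. Most of these genes also have processed pseudogenes, copies of the spliced mRNA elsewhere in the genome, so a short read can match several places.

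The first set of sequences shows pyrimidine runs near the start sites of some members that the results turn on, each of at least 9 bases. Other such members had short runs, with a longest run of 3 bases in Rpl24, Rpl10 and Rps3, and 4 in Rpl26. Each line runs from 20 bases before to 10 bases after the RefSeq start site (GRCm38.p6), 5′ to 3′, 30 bases in all. Capitals mark the longest run of C and T near the start. In Rpl4, Rpl31, Rpl5 and Rps27l the run lies wholly before the RefSeq start, so these lines do not show that the mRNA begins with it.
Rpl4: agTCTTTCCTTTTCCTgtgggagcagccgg
Rpl31: caCCTCTTCCTCCTCgcctccccgtgaccc
Rpl28: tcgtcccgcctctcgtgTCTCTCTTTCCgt
Rpl5: CTCTTTCTCacgtcgcttgcgtgctggtgg
Rps6: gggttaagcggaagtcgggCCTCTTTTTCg
Rps27l: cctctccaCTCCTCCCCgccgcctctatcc

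The run was 14 bases long in Rpl4 (chr9:64173367-64173396, plus strand) and 13 in Rpl31 (chr1:39367831-39367860, plus strand). It was 11 in Rpl28 (chr7:4792945-4792974, plus strand) and 9 in Rpl5 (chr5:107900508-107900537, plus strand). Rps6 (chr4:86857358-86857387, minus strand) had a run of 10, and the upstream of the 2 Rps27l start sites (chr9:66946066-66946095, plus strand) had a run of 9. The other Rps27l site had a run of 4. RefSeq start sites were found for 62 of the members, 74 sites in all. A run of at least 8 pyrimidines lay within 20 bases of the site in 40.5% of these 74, against 16% of all 32851 RefSeq start sites. The median longest run was 7 bases in the members and 5 in all sites. In the 300 bases from 250 before to 50 after the start, CTTCCG, the core of an ETS factor site, lay on either strand at 60.8% of member sites and 16.9% of all. CTTTCC, which can lie within the pyrimidine run, lay on either strand at 50% of member sites and 26.6% of all, and TATAAA at 8.11% and 13.6%. These matches describe the letters and say nothing of which factor binds. Rpl4, which fell with ox-LDL, and Rps27l, which did not, both had such a run. Rpl24 and Rpl26, which fell with ox-LDL at both glucose levels, had no run of at least 8 pyrimidines.

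The second set shows why some rows cannot be read alone. Rps27 on chromosome 3 (90212522-90213651, minus strand, 4 exons) and Rps27rt on chromosome 9 (114982366-114982739, minus strand, 1 exon) have the same coding sequence of 252 bases in GENCODE M21 (GRCm38), without a mismatch.
Rps27 and Rps27rt: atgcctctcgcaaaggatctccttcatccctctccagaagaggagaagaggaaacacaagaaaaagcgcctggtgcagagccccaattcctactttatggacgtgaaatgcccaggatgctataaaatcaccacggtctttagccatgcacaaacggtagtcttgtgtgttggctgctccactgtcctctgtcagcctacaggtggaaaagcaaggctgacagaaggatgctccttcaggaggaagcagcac

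Rpl9 and the row Rpl9-ps6 differ at 1 base of 576, at coding position 266 counted from the A of the start codon, shown in capitals within 61 bases.
Rpl9: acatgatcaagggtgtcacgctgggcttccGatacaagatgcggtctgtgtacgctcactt
Rpl9-ps6: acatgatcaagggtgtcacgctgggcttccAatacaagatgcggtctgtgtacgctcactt

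Over the 79 tested members, a median of 93% of the 50-base stretches of the coding sequence also occurred in another annotated gene or pseudogene. The share was at least 50% in 66 of the 79. Rps3 shared 8.09%, Rpl8 8.73% and Rpl4 20.3%, so these rows have sequence of their own to count. How the authors' counting treated reads that match several places is not given in the sources used here.

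The Rps27 pair showed such a spread. In the L_C libraries Rps27 was counted at 29.3, 60.2, 8.91 and 19.7 CPM, and Rps27rt at 29.8, 10.4, 56.5 and 28.2 CPM. Where Rps27 was high, Rps27rt was low, and their sum ran from 42.9 to 71.3 CPM over all 16 libraries while Rps27 alone ran from 5.71 to 60.2 CPM. The sum was 60.8 ± 9.74 CPM in L_C, 50.6 ± 5.17 in L_O, 66.8 ± 6.08 in H_C and 52.0 ± 3.75 in H_O (SD, n = 4 each). The sum lay lower in both ox-LDL groups, and no H_O library reached the lowest H_C library. Neither row passed the test in any contrast, and the pair was looked at because its values were seen to mirror each other.

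**Figure D1:**
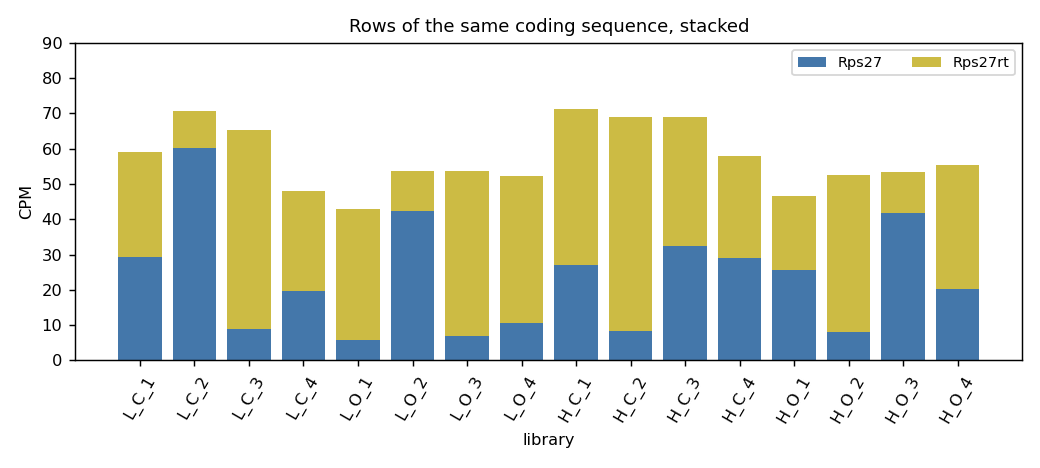
Stacked bars give the CPM of the rows Rps27 and Rps27rt in each of the 16 libraries. The split between the rows varied from library to library, with Rps27 between 5.71 and 60.2 CPM, while the height of the stack stayed between 42.9 and 71.3 CPM.

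Rps2, a small-subunit protein at the mRNA entry side, had 461 ± 7.69 CPM in L_C, 462 ± 13.2 in L_O, 461 ± 14.2 in H_C and 463 ± 22.3 in H_O (SD, n = 4 each). Per kilobase of coding length, the tested members had between 28.5 CPM (Rpl22l1) and 1597 CPM (Rpl41), with a median of 389 CPM per kilobase. Rpl41 encodes the shortest member at 75 coding bases, and reads in its untranslated parts count too, so its value overstates its place. After it came Rpl10 at 961, Rps4x at 759 and Rps3a1 at 687 CPM per kilobase. The paralog Rpl22l1 stood below Rpl22 at 201 CPM per kilobase, and Rps19bp1 was at 29.3 CPM per kilobase. Rps27l was at 91.3, Rps27 at 93.3 and Rps27rt at 134.9 CPM per kilobase. Since Rps27 and Rps27rt have the same coding sequence, the Rps27 row alone does not give a level to set beside Rps27l.

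The library L_C replicate 4 stood apart from the rest, and the counts of members are given with and without it. The members took 1.71%, 1.76%, 1.72% and 1.34% of the counts in L_C, in the order of the replicates. They took 1.55%, 1.65%, 1.61% and 1.6% in L_O. They took 1.85%, 1.77%, 1.80% and 1.71% in H_C. In H_O the shares were 1.55%, 1.59%, 1.62% and 1.59%. Replicate 4 of L_C was the lowest of all 16, and without it the ox-LDL groups lay below the groups without ox-LDL, with no overlap at either glucose level. In that library 3.72% of counts fell on mitochondrially encoded genes, while the remaining 15 libraries had 1.48% to 2.3%. In bulk RNA, fewer cells of a type and less RNA per cell cannot be told apart.

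**Figure D2:**
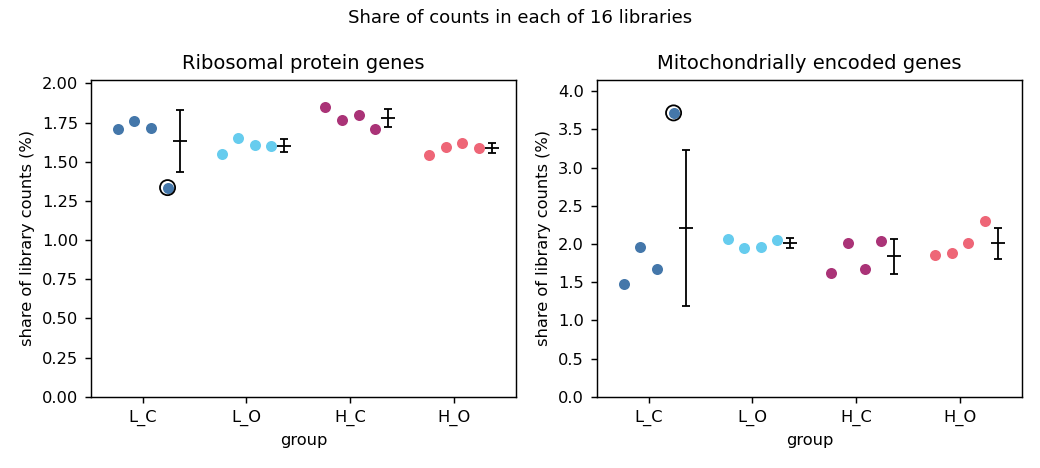
Points give the share of each library's counts, in percent, held by the ribosomal protein genes (left) and by the mitochondrially encoded genes (right), with the mean and SD of each group of 4 beside them. The circled point is L_C replicate 4, lowest on the left at 1.34% and highest on the right at 3.72%.

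Replicate 4 of L_C was not evenly low. Against the mean of the other 3 L_C libraries, 65 of the 79 members were lower and 14 higher, with a median log2 ratio of -0.37. The SD of that log2 ratio across members was 0.52, against 0.105 to 0.366 in the other libraries. Rps16 had 110 CPM there against 265 to 277 in the other 3, Rps3 194 against 390 to 400, and Rps19 62.7 against 171 to 190. Rps26 had 250 CPM against 118 to 122, and Rpl21 65.8 against 34.9 to 35.7. Rps3 and Rps19 are small-subunit proteins at the mRNA entry and at the head of the subunit, and Rps26 lies at the mRNA exit. The size of the departure showed little relation across members to coding length (Spearman's rho 0.0963) or to the share of sequence found elsewhere (rho 0.0329). The cause of the departure was not tested.

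**Figure D3:**
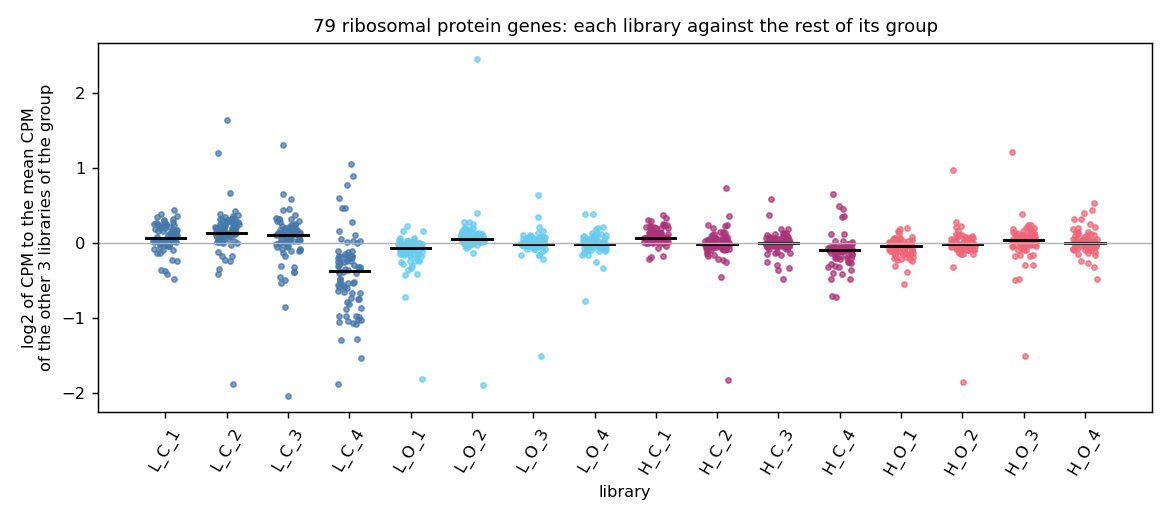
Each point is 1 of 79 ribosomal protein genes, and its height is the log2 ratio of its CPM in a library to its mean CPM in the other 3 libraries of the group. Black lines are medians. L_C replicate 4 has the lowest median (-0.37) and the widest cloud, and in the other libraries the points beyond 1.5 or below -1.5 are Rps27 and Rps27rt.

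The comparison of H_O with H_C asks what ox-LDL does in high glucose, and it does not use L_C replicate 4 except through the shared estimate of the spread. With ox-LDL, 25 of the 79 members fell and 0 rose, where 10.4% of all tested entries rose. The falls were small, between -0.18 and -0.54 on the log2 scale. That is 31.6% of the members, against 11.5% of all tested entries that fell. Of the 25, 17 were of the 46 large-subunit members and 8 of the 33 small-subunit members. The median log2 fold change was -0.22 over the members and 0.01 over all tested entries, and 72 of the 79 members lay below 0, against 48.6% of all entries. Calls are from edgeR's quasi-likelihood test with Benjamini-Hochberg adjustment over all 13527 entries, at an adjusted p below 0.05. At an unadjusted p below 0.05, 1 member was higher, against 15.8% of all entries.

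Rpl4, a large-subunit protein with a long loop into the peptide exit tunnel, led the list. It had 869, 887, 867 and 831 CPM in H_C and 634, 672, 662 and 628 CPM in H_O. All 4 libraries with ox-LDL lay below all 4 without, and the log2 fold change was -0.41 ± 0.04 (SE, n = 4 each, edgeR adjusted p = 1.51e-07). Rpl4 lies at chr9:64173375-64178666 and has 10 exons.

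Rpl31, at the rim of the exit tunnel, had 186, 190, 183 and 173 CPM in H_C and 132, 127, 132 and 138 CPM in H_O. The groups did not overlap, and the log2 fold change was -0.47 ± 0.05 (SE, n = 4 each, edgeR adjusted p = 1.53e-06). Rpl31 lies at chr1:39367842-39371911. All of its coding stretches also occur elsewhere, while Rpl4 has mostly its own.

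Rpl24, which helps bridge the subunits, had 207, 197, 204 and 191 CPM in H_C and 147, 162, 161 and 147 CPM in H_O. It changed by -0.37 ± 0.05 on the log2 scale (SE, n = 4 each, edgeR adjusted p = 5.88e-06). Every H_O library lay below every H_C library.

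Rpl5 binds the 5S rRNA with Rpl11, and the free complex holds the p53 ligase Mdm2. Rpl5 had 537, 555, 525 and 529 CPM in H_C and 419, 431, 416 and 415 CPM in H_O, with a log2 fold change of -0.35 ± 0.06 (SE, edgeR adjusted p = 1.41e-04). Its partner Rpl11 had a log2 fold change of -0.14 ± 0.06 and did not pass (edgeR adjusted p = 0.13), although no H_O library reached the lowest H_C library. Rpl7 fell by 0.32 ± 0.05 on the log2 scale (SE, edgeR adjusted p = 1.62e-04), and Rpl10, a late-joining large-subunit protein, fell by 0.33 ± 0.06 (SE, edgeR adjusted p = 2.89e-04). For Rpl5, Rpl7 and Rpl10 no H_O library reached the lowest H_C library.

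Levels that did not overlap were more common than calls. In 44 of the 79 members, 55.7%, every H_O library lay below every H_C library, against 14.8% of all tested entries, and 20 of those 44 were not called. Rps3 was one of them, with 441, 414, 421 and 406 CPM in H_C and 387, 394, 404 and 396 CPM in H_O. Its log2 fold change was -0.09 ± 0.15 (SE, edgeR adjusted p = 0.736), with an SE set in part by its low value in L_C replicate 4. Without that library 51 members fell, 64.6% against 14.6% of all entries, and 1 rose, Rps27l, 1.27% against 14.3%. Of these 51, 30 were of the large and 21 of the small subunit. Rps3 was then called, with a log2 fold change of -0.09 ± 0.03 (SE, edgeR adjusted p = 0.0275), as were Rps14, Rps19, Rpl13a, Rps27a and Rps6.

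In high glucose 7 members lay above 0, and none of them was called with all libraries. The highest was Rps19bp1 at 0.23 (edgeR adjusted p = 0.263), and Rps27l, described below, was called without L_C replicate 4. Rps2 had a log2 fold change of 0.01 ± 0.04 (SE, n = 4 each). Rps24, a small-subunit protein with an alternatively spliced end, lay just below 0, beside Rps2, at -0.01 ± 0.05 (SE). The edgeR adjusted p-values of Rps2 and Rps24 were 0.955 and 0.892. Rpl36al, a relative of Rpl36a, had 0.06 ± 0.08, and Rpl7l1 had 0.07 ± 0.07 (SE). Rps2, Rps24, Rpl36al and Rpl7l1 were not called with or without L_C replicate 4, and their H_C and H_O libraries overlapped.

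**Figure D4:**
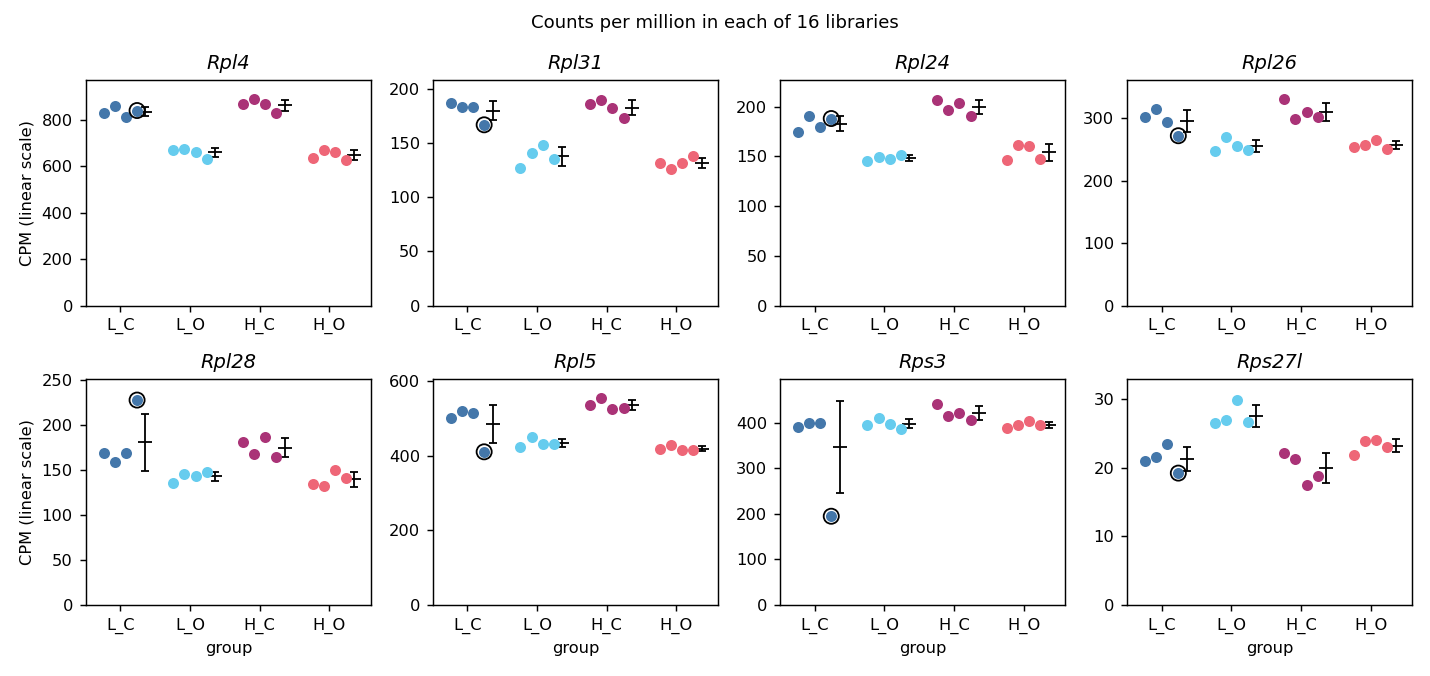
CPM of 8 ribosomal protein genes in each of the 16 libraries, on linear axes from 0, with the mean and SD of each group of 4. The circled point is L_C replicate 4. In Rpl4, Rpl31, Rpl24, Rpl26 and Rpl28 each ox-LDL group lies below its control with no overlap, in Rpl5 L_C replicate 4 overlaps L_O at 411 CPM, in Rps3 the L_C mean is pulled to 346 CPM by 1 library, and Rps27l is highest in L_O.

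The comparison of L_O with L_C asks the same in low glucose. With all 16 libraries, 17 of the 79 members fell, 21.5% against 13.8% of all tested entries, and 1 rose, 1.27% against 12%. The falls were of 12 large-subunit and 5 small-subunit members. The median log2 fold change was -0.05 over the members and 0.00 over all entries, and with library totals as the scaling it was 0.03, against 0.09 over all entries. Without L_C replicate 4, 35 members fell, 44.3% against 14.5% of all entries, with a median of -0.14 against 0.01. Of those 35, 22 were of the large and 13 of the small subunit. The number of members with no overlap and lower levels in L_O went from 14, 17.7% against 13.9% of all entries, to 41, 51.9% against 17.6%. The count in low glucose thus depended on whether that library was kept.

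Rpl4, Rpl31 and Rpl24 were among the leading calls in low glucose as in high glucose. Rpl4 had 827, 860, 813 and 840 CPM in L_C and 672, 673, 661 and 632 CPM in L_O. The groups did not overlap, and L_C replicate 4 lay among the other 3 here. The log2 fold change was -0.34 ± 0.04 (SE, n = 4 each, edgeR adjusted p = 1.59e-06). Rpl31 had 187, 183, 183 and 167 CPM in L_C and 127, 141, 148 and 136 CPM in L_O, and its log2 fold change was -0.39 ± 0.05 (SE, edgeR adjusted p = 1.58e-05).

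Rpl24 had 174, 191, 180 and 188 CPM in L_C and 145, 150, 148 and 151 CPM in L_O, a log2 fold change of -0.30 ± 0.05 (SE, edgeR adjusted p = 5.69e-05). All L_O libraries lay below all L_C libraries. Rpl26, at the exit tunnel, had 302, 315, 295 and 272 CPM in L_C and 248, 270.3, 255 and 249 CPM in L_O, again with no overlap. Rpl26 fell by 0.21 ± 0.05 (SE, edgeR adjusted p = 0.00287).

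Calls in low glucose differed in how firm they were. Rpl4, Rpl31, Rpl24 and Rpl28 fell under every alternative tried at both glucose levels, and Rpl28 was named after its values were seen, as were Rps2, Rps24, Rps16, Rps26, Rpl8, Rpl12, Rpl17, Rpl18, Rpl21 and Rpl7a. With all libraries, Rps26 and Rpl17 were called in low glucose and not in high glucose. Rps26 had 118, 122, 120 and 250 CPM in L_C and 107, 107, 106 and 109 CPM in L_O, a log2 fold change of -0.51 ± 0.18 (SE, edgeR adjusted p = 0.039). Without L_C replicate 4 it was -0.16 ± 0.06 (SE, edgeR adjusted p = 0.0581), and it was no longer called, while in high glucose it was then called (log2 -0.24, edgeR adjusted p = 0.00383). Rpl17 had 58.8, 127, 55.9 and 51.1 CPM in L_C and 45.5, 48.6, 45.5 and 49.5 CPM in L_O, with replicate 2 of L_C far above the rest. Its log2 fold change was -0.63 ± 0.22 (SE, edgeR adjusted p = 0.0459), and it lost the call under 16 of 28 alternatives.

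Other members had a different log2 fold change when L_C replicate 4 was left out. Rpl13a, which is also released from the ribosome in the interferon response of monocytes, had 417, 417, 399 and 199 CPM in L_C and 351, 370, 366 and 349 CPM in L_O. The log2 fold change of Rpl13a was 0.00 ± 0.15 (SE, edgeR adjusted p = 0.987) with all libraries and -0.19 ± 0.04 (SE, edgeR adjusted p = 7.46e-04) without L_C replicate 4. Rps16 went from 0.05 ± 0.18 to -0.18 ± 0.04, and Rps14 from 0.05 ± 0.14 to -0.14 ± 0.03 (SE), both called only without it. Rps3 had 390, 398, 400 and 194 CPM in L_C and 394, 410, 397 and 387 CPM in L_O. Its log2 fold change was 0.01 ± 0.03 without L_C replicate 4 (SE, edgeR adjusted p = 0.932), so it was not called in low glucose either way. Rps19, whose loss of function is known from Diamond-Blackfan anaemia, had -0.02 ± 0.05 without that library (SE, edgeR adjusted p = 0.797).

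A single member rose with ox-LDL in low glucose. Rps27l, a relative of Rps27 that p53 can induce, had 21.04, 21.6, 23.4 and 19.2 CPM in L_C and 26.6, 27.0, 29.9 and 26.8 CPM in L_O. Every L_O library lay above every L_C library, and the log2 fold change was 0.37 ± 0.08 (SE, n = 4 each, edgeR adjusted p = 0.00203). It had 22.2, 21.2, 17.5 and 18.9 CPM in H_C and 21.9, 23.8, 24.1 and 23.0 CPM in H_O, where the groups overlapped. There the log2 fold change was 0.22 ± 0.08 (SE, edgeR adjusted p = 0.0597), and 0.22 ± 0.07 without L_C replicate 4 (SE, edgeR adjusted p = 0.0301). The difference between the glucose levels was not called (log2 -0.15, edgeR adjusted p = 0.77). The gene lies at chr9:66946086-66949516, and 48.3% of its coding stretches occur elsewhere.

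The comparisons at the 2 glucose levels share no libraries. Of the 17 members that fell in low glucose, 15 also fell in high glucose, which is 88.2% of the former and 60% of the 25 that fell in the latter. Without L_C replicate 4, 33 members fell in both, 94.3% of 35 and 64.7% of 51. The overlap over all tested entries was not counted, here or for the gene lists below, so these shares have no background beside them. Members below 0 in both went from 51 to 67 of 79. Across the 79 members the log2 fold changes at the 2 levels had Spearman's rho 0.54, and 0.65 without that library, as a description over genes that share libraries and sequence.

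**Figure D5:**
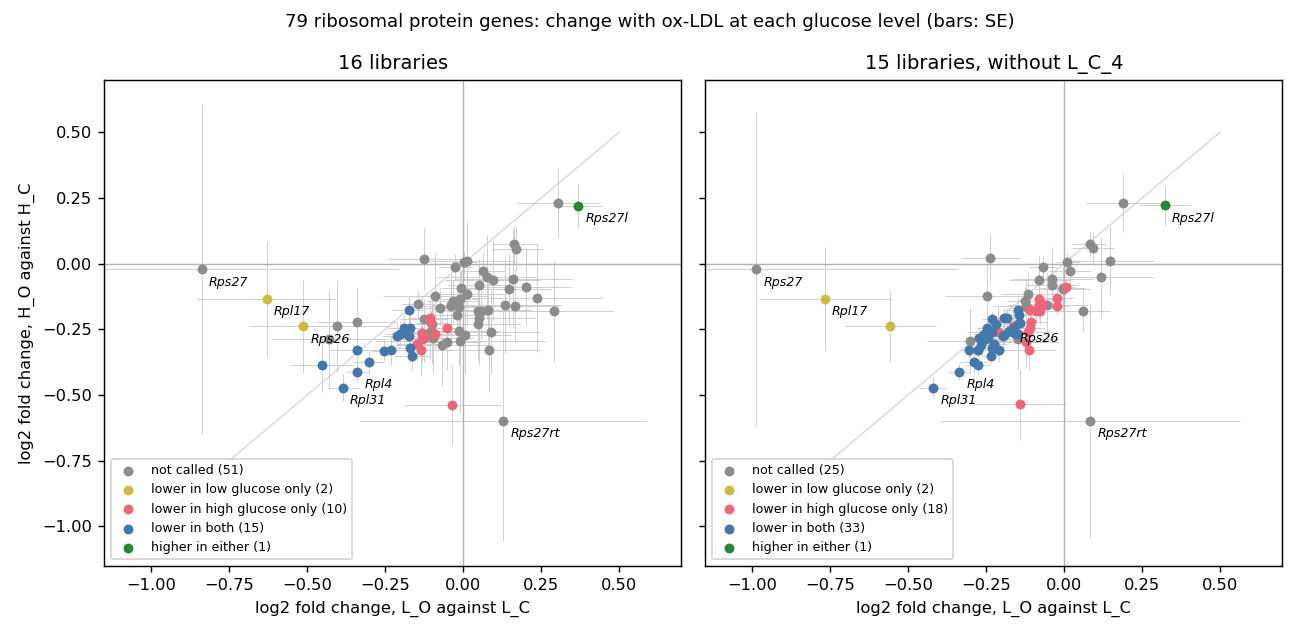
Log2 fold change with ox-LDL in low glucose (horizontal) against high glucose (vertical) for 79 ribosomal protein genes, with SE bars, from 16 libraries (left) and without L_C replicate 4 (right). Colours give edgeR calls. The number lower in both goes from 15 to 33, and the cloud moves left while its height stays; with library totals as the scaling the low-glucose median of the left panel is 0.03.

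The difference between the ox-LDL effects in high and low glucose was tested directly. Mannitol is named for L_C alone, so this difference also holds any effect of mannitol. No member passed, in either direction, where 0.00739% of all tested entries passed in each direction by edgeR. At an unadjusted p below 0.05, 0 members had a positive and 3 a negative difference, against 5.39% and 3.19% of all entries. The 3 were Rpl5, Rpl18 and Rpl7a, with log2 differences of -0.19 ± 0.08, -0.19 ± 0.08 and -0.50 ± 0.22 (SE). DESeq2 and limma-voom also called 0. Without L_C replicate 4 the count was also 0 in each direction, against 0.299% of all entries with a positive and 0.0874% with a negative difference. The median difference was -0.13 with all libraries and -0.06 without that library.

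The comparison of H_C with L_C asks what high glucose does without ox-LDL, with mannitol in L_C. Of the 79 members, 1 rose and 0 fell, 1.27% and 0% against 5.02% and 7.75% of all tested entries. Rpl7 had 422, 440, 426 and 356 CPM in L_C and 470, 466, 460 and 451 CPM in H_C, with no overlap. The log2 fold change was 0.17 ± 0.05 (SE, n = 4 each, edgeR adjusted p = 0.0416), and the call was lost under 12 of 28 alternatives. At an unadjusted p below 0.05, 0 members were lower, against 14.9% of all entries, and DESeq2 and limma-voom called 0 lower too. In 6 members, 7.59% against 7.58% of all entries, every H_C library lay above every L_C library, and in 0 members every one lay below, against 9.82% of all entries. The median was 0.09 with all libraries and 0.03 without L_C replicate 4, when Rpl7, Rpl8 and Rpl24 rose and Rpl12 fell (3.8% and 1.27%, against 6.71% and 9.21% of all entries).

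The comparison of H_O with L_O asks what high glucose does in the presence of ox-LDL, with no osmotic control named for L_O. Neither direction had a call among the 79 members by edgeR, DESeq2 or limma-voom, where 2.71% of all tested entries rose and 3.39% fell. At an unadjusted p below 0.05, 0 members were higher and 3 lower, against 9.4% and 10.3% of all entries. In 6 members, 7.59%, every H_O library lay below every L_O library, against 9.52% of all entries, and in 1 member, 1.27%, every one lay above, against 8.18%. Those counts were also 6 and 1 without L_C replicate 4, against 9.4% and 8.07%. Rps27l had a log2 fold change of -0.25 ± 0.08 (SE, edgeR adjusted p = 0.0798), with every H_O library below every L_O library. Rpl22, which also binds other RNAs, had -0.15 ± 0.06 (SE, edgeR adjusted p = 0.197), and its low paralog Rpl22l1 stayed between 7.56 and 11.3 CPM in both groups. The median was -0.035 with all libraries and -0.0352 without L_C replicate 4. Without it 4 members fell, Rps27l, Rpl3, Rpl10a and Rps27a, which is 5.06% against 7.38% of all entries, and 0 rose, against 5.45%. Rpl10a was named after its values were seen.

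Of 7 ribosomal proteins whose symbols fall outside the rule, 1 fell and 0 rose in low glucose, and 3 fell and 0 rose in high glucose. Over all entries 13.8% fell and 12% rose in low glucose, and 11.5% and 10.4% in high glucose. The falls were 2 and 3 without L_C replicate 4, against 14.5% and 14.6% of all entries. The rises were then 0 at both levels, against 13.8% and 14.3%. Fau, which encodes the small-subunit protein eS30 fused to a ubiquitin-like part, had log2 fold changes of -0.31 ± 0.09 and -0.39 ± 0.09 (SE, edgeR adjusted p = 0.0157 and 0.0042). Rack1, a scaffold on the small subunit, had -0.12 ± 0.05 and -0.20 ± 0.05 (SE, edgeR adjusted p = 0.0855 and 0.00562). Rplp0, Rplp1 and Rplp2, the stalk that recruits elongation factors, were not called at either level.

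Among 37 translation factors, 10 rose and 9 fell in low glucose, and 9 rose and 12 fell in high glucose. Over all entries 12% rose and 13.8% fell in low glucose, and 10.4% and 11.5% in high glucose. Leaving out L_C replicate 4, 12 factors rose and 12 fell in low glucose, and 11 and 14 in high glucose. The shares over all entries were then 13.8% and 14.5% in low glucose, and 14.3% and 14.6% in high glucose. The same 9 fell at both levels: Eef1a1, Eef2, Eif3e, Eif3f, Eif3h, Eif4b, Naca, Pabpc1 and Tpt1. Eef1a1, which brings aminoacyl-tRNA to the ribosome, had 8827, 9065, 8779 and 8596 CPM in L_C and 7534, 7380, 7341 and 7458 CPM in L_O. Its log2 fold change was -0.25 ± 0.03 in low glucose and -0.31 ± 0.03 in high glucose (SE, edgeR adjusted p = 1.52e-06 and 1.06e-07). Eif3f had -0.48 ± 0.04 and -0.45 ± 0.04, and Eif4b -0.36 ± 0.04 and -0.39 ± 0.04 (SE). Among the 8 that rose at both levels were Eif4e, the cap-binding factor, with 0.35 ± 0.07 and 0.53 ± 0.07, and Eif4g1, its scaffold partner, with 0.23 ± 0.04 and 0.21 ± 0.04 (SE). The factors named here beyond Eef1a1, Eif3f and Eif4b were singled out after their values were seen.

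Of 48 ribosome biogenesis genes, 19 rose and 0 fell in low glucose (12% and 13.8% over all entries), and 18 rose and 1 fell in high glucose (10.4% and 11.5%). Their median log2 fold changes were 0.23 and 0.20. When L_C replicate 4 was left out, 21 rose and 1 fell in low glucose (13.8% and 14.5% over all entries), and 23 and 3 in high glucose (14.3% and 14.6%). The genes that rose at both levels numbered 12, and 16 without that library. Nop56, a core protein of the particles that methylate rRNA, had 24.96, 24.9, 23.3 and 23.7 CPM in L_C and 30.9, 30.6, 33.2 and 28.8 CPM in L_O. Its log2 fold change was 0.35 ± 0.07 in low glucose and 0.44 ± 0.07 in high glucose (SE, edgeR adjusted p = 6.45e-04 and 7.82e-05). Gnl3, nucleostemin, had 0.41 ± 0.06 and 0.33 ± 0.06, with every ox-LDL library above every control library at both levels.

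Mitochondrial ribosomal proteins are a separate set that serves the mitochondrial genome. Of 78, 10 rose and 1 fell in low glucose, and 12 rose and 0 fell in high glucose. With L_C replicate 4 left out, 7 rose and 0 fell in low glucose, and 14 and 1 in high glucose. The rises are to be read against 12% and 10.4% of all entries, and 13.8% and 14.3% without that library. For the falls these shares were 13.8% and 11.5%, and 14.5% and 14.6% without that library. The medians were 0.14 at both levels with all libraries, and 0.10 and 0.14 without it. Of 83 nuclear respiratory chain subunits, another group of short abundant mRNAs, 11 rose and 1 fell in low glucose and 9 rose and 1 fell in high glucose. The respiratory chain counts without that library were 10 and 2 in low glucose, and 21 and 3 in high glucose. Their rises too are to be read against 12% and 10.4% of all entries, and 13.8% and 14.3% without that library. Their falls are to be read against the same shares of falls as above. In L_C replicate 4 the median log2 deviation of these subunits was -0.34, beside -0.25 for the ribosomal protein members. Both gene groups were thus low in that library.

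Of 25 tested genes that control translation, 4 rose and 6 fell in low glucose, and 2 rose and 5 fell in high glucose. These were 5 and 7, and 4 and 6, without L_C replicate 4. Over all entries 12% rose and 13.8% fell in low glucose, and 10.4% and 11.5% in high glucose. Without that library these shares were 13.8% and 14.5% in low glucose, and 14.3% and 14.6% in high glucose. The same shares apply to the quality control and cell cycle counts below. Myc, a transcription factor of growth genes, had log2 fold changes of 0.78 ± 0.17 and 1.17 ± 0.17 (SE, edgeR adjusted p = 0.00182 and 5.72e-05). Eif4ebp2, a repressor of Eif4e, had -0.18 ± 0.04 and -0.20 ± 0.04 (SE, edgeR adjusted p = 0.00232 and 9.65e-04). Called at both levels with all libraries were Eef2k and Myc, higher, and Eif4ebp2, Ppp1r15a and Tsc1, lower. Without L_C replicate 4, Eif4ebp1 and Sesn2 were also higher at both levels, and Max and Ppp1r15b lower. Of 15 ribosome quality control genes, 3 rose and 1 fell in low glucose, and 2 rose and 1 fell in high glucose, and without that library 3 and 1, and 4 and 1. Of 5 cell cycle markers, 3 rose in low and 5 in high glucose, and 4 and 5 without that library, with Mcm2 at 0.69 ± 0.08 and 0.80 ± 0.08 (SE, edgeR adjusted p = 4.86e-06 and 8.52e-07). The part of cell division in the ribosomal protein levels was not tested.

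Calls were also set against the share of sequence found elsewhere. In high glucose, 2 of 6 members with under 25% shared, 4 of 10 with 25% to 75% and 19 of 63 with at least 75% fell, with medians of -0.14, -0.23 and -0.22. Without L_C replicate 4 the counts were 4 of 6, 7 of 10 and 40 of 63. In low glucose without that library they were 3 of 6, 5 of 10 and 27 of 63. Rpl4 and Rpl8, with mostly their own sequence, were among those that fell at both levels without that library. The pseudogene row Rpl9-ps6 and Rpl9 together had 225 ± 4.95 CPM in H_C and 185 ± 1.96 CPM in H_O (SD, n = 4 each). In low glucose the sum was 197 ± 62.4 CPM in L_C and 193 ± 3.4 CPM in L_O (SD, n = 4 each), with L_C replicate 4 at 103.5 CPM. All coding stretches of Rpl9 occur elsewhere, in 14 other genes, so this sum does not cover every place such a read can match.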

How the data were processed

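The authors deposited a single table of raw read counts per gene for the 16 libraries, with totals between 32596640 and 41712885, which set the counting error. HISAT2, DESeq2 and the build mm10 are named, without versions or roles, per the submitters' processing notes. The counting tool, its annotation, strand setting and treatment of reads with several matches are not given in the sources used here. Groups were taken from the labels. The test used R 4.3.3 and edgeR 4.0.16, with filterByExpr by group, TMM scaling, the quasi-likelihood F test (two-sided) on 1 fit of all 16 libraries with 12 residual degrees of freedom, 5 contrasts, and Benjamini-Hochberg adjustment over all 13527 entries. CPM uses TMM-scaled totals, and a deviation is a gene's log2 CPM minus its mean over all libraries. DESeq2 1.42.0 and limma 3.58.1 served as alternatives. The scripts were tested on simulated data. Named members were the strongest calls, the most abundant members and listed paralogs. The members, lists and alternatives were chosen with earlier results of these data known. No snoRNA host gene of the 18 listed was among the entries, so that list was not analysed here. Replicates of a group differed beyond sampling noise in every pair, with chi-square per degree of freedom of at least 6.48. Values of some members are not reported here, and the counts include them. Same-numbered libraries did not deviate together.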

Additional observations from a re-analysis of the deposited data

Results flagged for a closer look

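In each group of 4 libraries the highest and the lowest value of each member were set against the nearest other value, and a value was taken up where the ratio of that gap to the group's range exceeded Dixon's 95% critical value. Chance gives about 1 in 20 groups. Of 322 groups of values, 41 had such a library, and 27 of the 80 in L_C, of which 25 were in replicate 4.

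In L_C replicate 4 the members' share of counts was 1.335% and their median log2 deviation -0.2485, both far below the other 3. High there were Rps6 at 512.9 CPM, Rps26 at 250.3, Rpl28 at 228.1, Rpl29 at 223.4 and Rpl21 at 65.75 CPM. Low there among the large-subunit genes were Rpl5 at 411.0 CPM, Rpl8 at 298.8, Rpl13 at 200.4, Rpl13a at 199.0, Rpl10a at 198.5, Rpl15 at 151.0, Rpl14 at 94.86, Rpl9 at 92.75 and Rpl36al at 42.15 CPM. Low there among the small-subunit genes were Rps3a1 at 417.6 CPM, Rps9 at 264.4, Rps3 at 194.4, Rps27a at 151.8, Rps14 at 148.6, Rps20 at 121.2, Rps16 at 109.9, Rps19 at 62.74, Rps21 at 21.64 and Rps29 at 14.9 CPM.

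Elsewhere in L_C, Rpl17 stood high in replicate 2 at 126.5 CPM and Rpl41 low in replicate 3 at 74.72 CPM. In L_O replicate 1, Rpl22 stood high at 80.94 CPM, and Rps25 at 174.5 and Rpl35 at 120.3 CPM stood low. In L_O, Rps27 stood high in replicate 2 at 42.44 CPM, Rps27l and Rpl39l in replicate 3 at 29.89 and 0.6083 CPM, and Rpl21 in replicate 4 at 38.92 CPM, where Rpl7l1 was low at 66.92 CPM. In H_C replicate 4, Rpl30 and Rpl17 stood high at 126.0 and 86.49 CPM. In H_O, Rpl3 stood high in replicate 2 at 490.6 CPM, Rpl13 and Rpl32 in replicate 3 at 386.9 and 178.6 CPM, and Rps28 in replicate 4 at 35.17 CPM. The members' median log2 deviation was low in H_O replicate 1 at -0.1197.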

How the results depend on the processing

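Of 44 called pairs of a member and a comparison, 26 kept their call under every alternative and 18 lost it under some. The 26 were 19 falls in H_O against H_C, and 6 falls and 1 rise in L_O against L_C. The counts of members in this section stand without the share over all entries under the same setting, so they cannot be read against it. For the settings that follow, only counts that moved clearly from the main fit are given, and a count not named is not to be read as 0. The 19 falls in H_O against H_C held under each of these settings. With library totals as the scaling, 4 members rose and 6 fell in L_O against L_C, 1 rose in H_O against H_C and 2 rose in H_C against L_C. With sample quality weights in limma-voom, 32 fell in L_O against L_C, 48 fell and 1 rose in H_O against H_C, 2 rose in H_C against L_C and 2 fell in H_O against L_O. Plain limma-voom gave 1 rise in H_O against H_C. Fits on the 8 libraries compared gave 49 falls in H_O against H_C, 0 rises in H_C against L_C, and 1 rise and 1 fall in H_O against L_O. Upper-quartile factors and DESeq2 each gave 2 rises in H_C against L_C. Library totals without L_C replicate 4, chosen after seeing the data, gave 2 rises and 27 falls in L_O against L_C, 3 and 41 in H_O against H_C, 7 rises in H_C against L_C and 2 falls in H_O against L_O. Without mitochondrially encoded genes the mean H_O share of counts was 1.62%, against 1.587% with them, and the share was higher in every library of each group. The causes were not tested.

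With each library left out in turn, falls ran from 11 (without L_O replicate 4) to 35 (without L_C replicate 4) in L_O against L_C and from 21 to 51 in H_O against H_C, and rises from 1 to 2 and 0 to 1. In H_C against L_C rises ran from 0 to 3 and falls from 0 to 1, and in H_O against L_O falls ran from 0 to 4 and rises stayed at 0. The medians ran from -0.144 to -0.00848 in L_O against L_C, -0.244 to -0.182 in H_O against H_C, 0.0314 to 0.143 in H_C against L_C and -0.0574 to -0.0166 in H_O against L_O. In L_O against L_C, Rpl13a turned to -0.19 without L_C replicate 4, -0.17 with quality weights and -0.13 with library totals without that library. Rps16 turned to -0.18 and -0.11, without that library and with library totals as well, and Rps14 to -0.14. Rpl12 turned to -0.10 in H_C against L_C without that library. With any other single library left out, the highest values were 0.087 for Rpl13a, 0.132 for Rps14, 0.153 for Rps16 and 0.0587 for Rpl12.

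Same-numbered libraries of different groups had correlations of their deviations from -0.164 to 0.038, and in 3 of 16 same-numbered pairs a library correlated best with its own number. A replicate block gave 3 rises and 16 falls in L_O against L_C, 0 and 30 in H_O against H_C, 1 and 0 in H_C against L_C, and none in H_O against L_O or in the difference between glucose levels. Depth was at least 32596640 counts in each library. Rpl39l and Rpl3l were too low to test.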
